A study of Mus musculus with 6 samples.

Results

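The genes described here encode the nuclear subunits of the mitochondrial respiratory chain: complexes I to IV and ATP synthase. They were chosen by symbol alone (Nduf followed by a, b, c, s or v and a number, the Sdh genes, Uqcr and Cyc1, the Cox genes numbered 4 to 8, and Atp5), without assembly factors and with the brightest probe standing for each gene. This gave 62 genes out of 13840 with a single-gene probe on the array: 27 of complex I, 4 of complex II, 7 of complex III, 12 of complex IV and 12 of ATP synthase. The rule used no group difference, only brightness to pick between probes, and just 1 of the 62 genes, Atp5j, has a second probe. The reference annotation holds 88 protein-coding genes whose symbols match the pattern, of which 27 have no single-gene probe here and are not analysed, among them Ndufv2 and Atp5a1. All members are nuclear genes, since the 13 mitochondrially encoded subunits have no named probe either.

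RNA came from presomitic mesoderm, the unsegmented tail tissue from which somites form, of mouse embryos at embryonic day 10.5. Heterozygous Nrarp mutants were mated with each other. Their wild-type offspring were compared with littermate Nrarp knockouts, in which LacZ stands in place of the Nrarp coding region and which therefore lack this Notch-induced ankyrin-repeat protein in every cell rather than in one tissue. Presomitic mesoderms numbering 12 were collected per genotype and hybridised as 3 one-colour arrays a group, numbered 1 to 3. The labels do not say whether an array holds 1 embryo's tissue, a pool or a split of a pool, so the p-values below speak of the scatter of these arrays, part of which may be technical. Neither strain nor embryo sex is stated.

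The respiratory chain couples the oxidation of NADH and succinate to the making of ATP. Complexes I and II pass electrons to ubiquinone, complex III passes them on to cytochrome c, and complex IV hands them to oxygen. Complexes I, III and IV pump protons across the inner membrane, and ATP synthase uses the returning protons to phosphorylate ADP. Early embryos and axis progenitors are known for strong glycolysis beside this pathway, and several subunits exist as tissue-specific isoforms used in heart, skeletal muscle, lung or testis.

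The labels were checked on all arrays before the members were read. The Nrarp probe read 318 to 448 on wild-type arrays and 14.3 to 42.5 on knockout arrays. Of 9 measured presomitic mesoderm markers, 9 lay above the array median everywhere, and their summed intensity, most of it from Tbx6 and Dll3, was 1431 to 1745 in wild type and 1513 to 1693 in the knockout. Primitive blood markers were also present (8 of 8 measured above the median on every array, summed intensity 7384 to 8521 in wild type and 6269 to 8489 in the knockout). Skeletal muscle markers were not, with 0 of 9 above the median on every array. Heart markers were above it for 6 of 10, neural tube markers for 4 of 8 and germ cell markers for 2 of 7. The replicate 1 arrays of both genotypes stood apart from the other 4, their 75th percentile being 42.7 and 56.9 times the 10th, against 12.4 to 16.0 times, and every result below is given with this in view.

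Promoter letters show what a few of these genes have in common outside the array. RefSeq windows of the GRCm38.p6 build, from 250 bases before to 50 after the start site, were at hand for 51 of the 62 genes (55 windows on 17 chromosomes). On either strand, the core of the NRF1 site, GCATGCGC, which lies inside a longer palindromic NRF1 motif, was in 10.9% of the members' windows and 2.71% of all 32851 windows of that length. The palindrome was in 3.64% against 0.971%. The ETS letters CCGGAAG, bound by GABP, were in 20.0% against 8.86%, and the YY1 motif in 9.09% against 0.852%. At least one of these was found in 19 of the 51 genes. NRF1, GABP and YY1 are known activators of nuclear genes for mitochondrial proteins, but a match describes letters only and shows no binding. The 4 stretches printed below, each 120 bases long and ending before the start site, were picked after their values were seen. With the brightest probe of each gene, Atp5g2 read higher on the replicate 1 arrays, and the other 3 did not. The dimmer second probe of Atp5j did read higher there, by 6.86-fold, so for that gene the contrast depends on the probe. Capitals mark the matched letters on either strand.
Atp5g2, chr15:102671048-102671167, minus strand: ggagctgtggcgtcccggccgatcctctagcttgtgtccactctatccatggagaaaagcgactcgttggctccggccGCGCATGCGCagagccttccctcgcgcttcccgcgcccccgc
Sdhb, chr4:140961151-140961270, plus strand: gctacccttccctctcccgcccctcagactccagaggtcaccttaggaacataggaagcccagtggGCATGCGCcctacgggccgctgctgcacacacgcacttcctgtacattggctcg
Sdhd, chr9:50603850-50603969, minus strand: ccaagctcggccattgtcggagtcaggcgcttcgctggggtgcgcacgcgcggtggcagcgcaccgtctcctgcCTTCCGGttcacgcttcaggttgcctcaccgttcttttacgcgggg
Atp5j, chr16:84834988-84835107, minus strand: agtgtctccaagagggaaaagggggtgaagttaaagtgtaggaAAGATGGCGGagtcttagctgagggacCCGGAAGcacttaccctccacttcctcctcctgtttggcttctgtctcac

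Most of the measured subunit genes were strongly expressed in this tissue. Intensities are linear and had been scaled by the authors so that each array's median lies near 1. Of the 62 genes, 56 read above the 75th percentile of every one of the 6 arrays. This was so for 20.3% of all probes and for 29.2% of all genes read by their brightest probe. The median over members was 170, 72.9 and 94.9 on wild-type arrays 1, 2 and 3 and 175, 78.7 and 75.8 on knockout arrays 1, 2 and 3. The 6 genes outside this bright set were Ndufb11, which fell short on knockout array 3 alone, and the complex IV isoform genes Cox4i2, Cox6b2, Cox7a1, Cox7b2 and Cox8b. Brightness depends on the probe as well as the transcript, so levels are compared here between arrays and never between genes. In bulk tissue a lower level per cell and fewer expressing cells cannot be told apart.

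**Figure D1:**
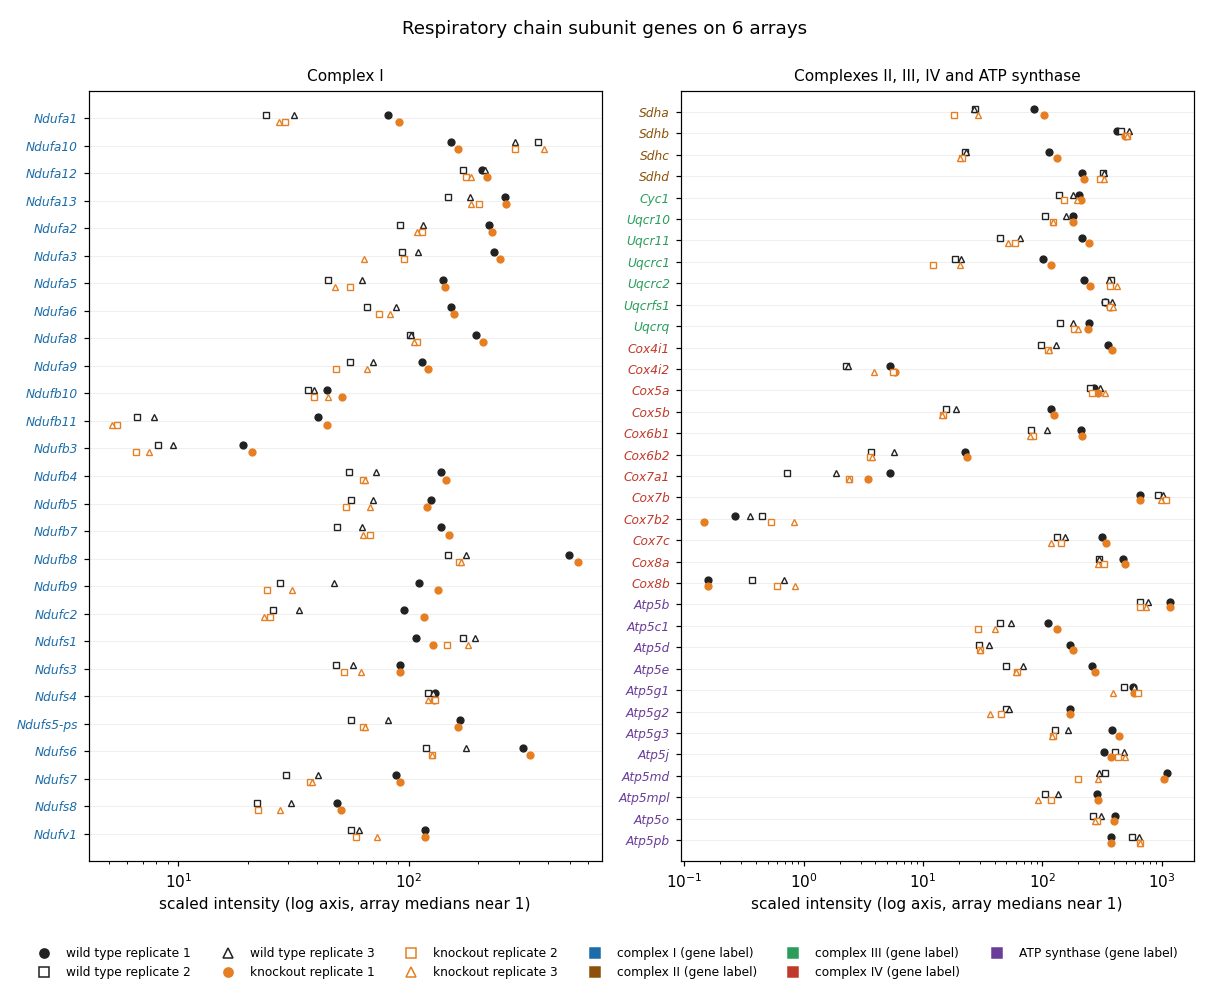
Scaled intensity (log axis) of each of the 62 subunit genes on 3 wild-type (black) and 3 knockout (orange) arrays, with replicate 1 as filled symbols and gene names coloured by complex. Genotypes lie on top of each other, whereas the filled symbols stand to the right of the open ones for most genes and to the left for a few, such as Ndufa10 and Atp5pb.

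Loss of Nrarp left no called difference in any subunit gene. With genotype as the single term in limma, 0 of 62 members passed an adjusted p of 0.05, as did 0 of 33012 probes (0%), the Nrarp probe included. Nrarp itself, at a log2 difference of -4.03, had an adjusted p of 0.428 in that limma fit and 0.00042 with the replicate number as a block, so an uncalled gene in the first fit is weak evidence of no change. An unadjusted p under 0.05 was reached by 0 members and by 0.657% of all probes. With the replicate number as a block, 0 members passed an adjusted p of 0.05 (0.00606% of all probes, 2 in number, did), and 1 member had an unadjusted p under 0.05, against 3.75% of all probes. In 0 members did the 3 knockout arrays all lie above the 3 wild-type arrays or all below them, which was so for 2.04% and 1.74% of all probes. Adjusted p-values of the members were all at least 0.999 in both limma fits.

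The differences were small as well as uncalled. On the log2 scale, knockout minus wild type, 31 members lay above zero and 31 below, and the median was -0.0025 beside -0.0063 over all probes. The median size of the difference, sign set aside, was 0.092 for members, 0.22 for all probes and 0.094 for the brightest 25% of probes, so the small size is shared with bright probes in general. Among the 56 constitutive subunits, that is without the isoform genes and the pseudogene entry Ndufs5-ps, the differences ran from -0.29 to 0.21. With the replicate block the 95% interval stayed inside a 2-fold change in either direction for all 56 of these and for 58 of the 62 members. It did so for 8101 of the 8253 brightest probes (25%) and 11581 of all 33012, so this too is shared with bright probes. Without the block it did so for 22 members, 4274 of the brightest probes and 4643 of all probes. The 4 members with wider blocked intervals were Cox4i2, Cox7a1, Cox7b2 and Cox8b.

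**Figure D2:**
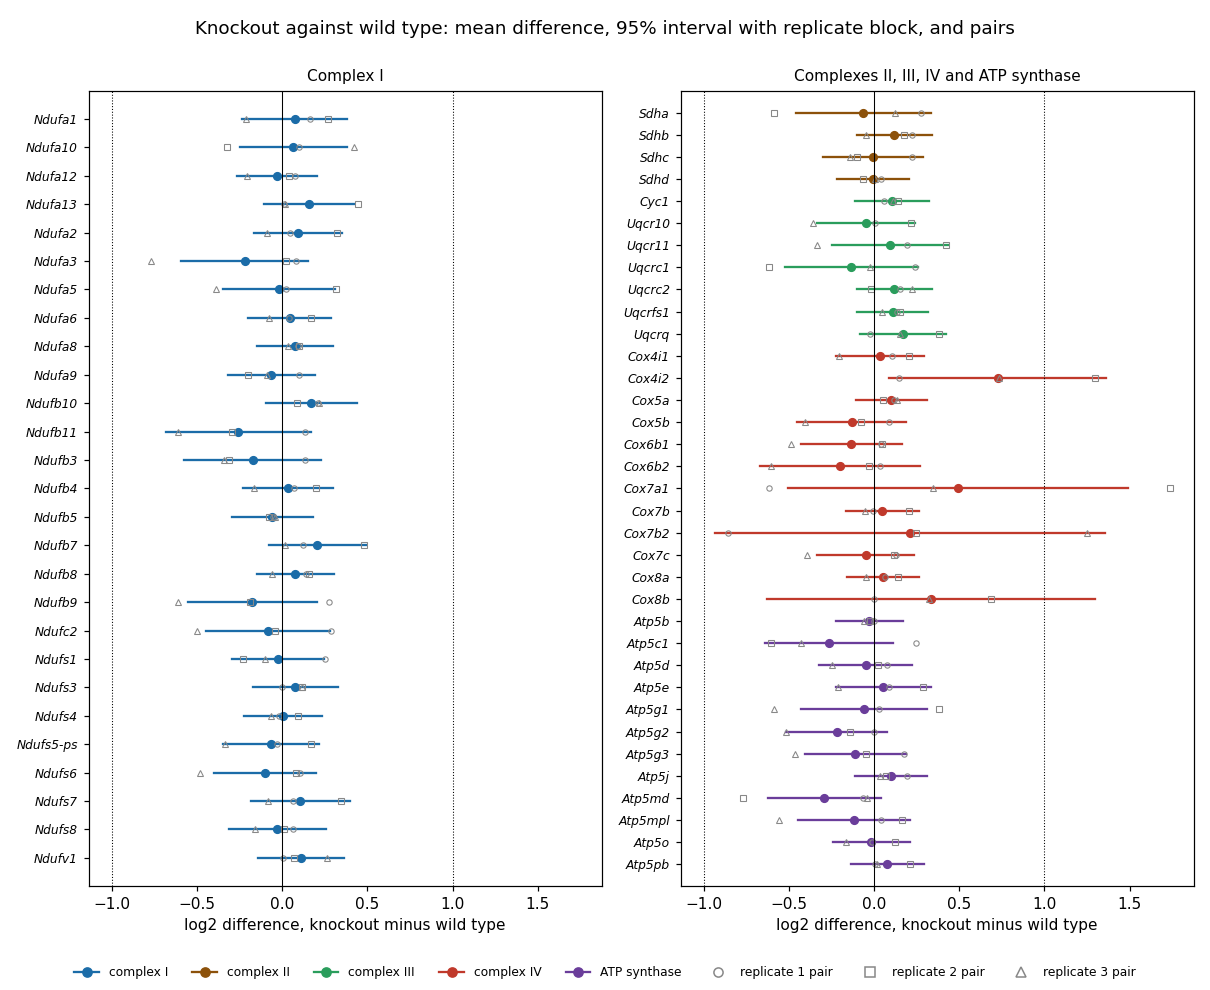
Log2 difference between knockout and wild type for each gene: filled circle, mean difference; bar, 95% interval from the limma fit with replicate block; open grey symbols, the 3 replicate pairs; dotted lines, a 2-fold change. All bars lie between the dotted lines except those of Cox4i2, Cox7a1, Cox7b2 and Cox8b.

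Complex I, the NADH dehydrogenase and largest entry point of electrons, was split into 14 genes above and 13 below zero, the median being 0.0026. Its catalytic core holds the flavin and iron-sulphur centres. Ndufv1, which carries the flavin and the NADH site, read 117, 56.2 and 61.0 on the wild-type arrays and 118, 58.9 and 73.0 on the knockout arrays. Ndufs1, the large iron-sulphur subunit, read 107, 172 and 194 against 128, 147 and 181. The groups overlapped for both, and the log2 differences were 0.11 (blocked SE 0.11) and -0.027 (blocked SE 0.12). Other measured core genes were Ndufs3 (0.078), Ndufs7 (0.11) and Ndufs8 (-0.028), so the 5 core genes read here lay within 0.2 of zero. The smallest unadjusted p-values of the complex without the block belonged to accessory subunits. Ndufb10, a membrane-arm subunit, read 44.2, 36.4 and 38.6 (wild type) and 51.1, 38.7 and 44.8 (knockout). It was higher in all 3 replicate pairs (0.21, 0.09 and 0.21), and its fold was 1.13 (95% interval 0.935 to 1.35 with the block). All 3 pairs were higher for 12 of 62 members, among them Uqcrfs1, Cyc1 and Cox5a, and for 4368 of 33012 probes. Ndufa13, also known as the apoptosis-related factor GRIM-19, read 262, 148 and 184 against 264, 201 and 186, a log2 difference of 0.16. Ndufb7 had the largest positive difference of the complex at 0.21 and Ndufb11 the largest negative one at -0.26. Ndufs4, an accessory subunit whose loss causes Leigh syndrome, gave a wild-type mean of 126 ± 4.61 (SD, n = 3) and a knockout mean of 127 ± 4.47 (SD, n = 3).

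Complex II, the succinate dehydrogenase of the citrate cycle, is built from the flavoprotein Sdha, the iron-sulphur protein Sdhb and the membrane anchors Sdhc and Sdhd. Sdha read 86.0, 27.3 and 26.6 in the wild-type group, and 104, 18.1 and 29.0 in knockouts. Sdhb read 424, 458 and 534 against 495, 518 and 517, the difference with the smallest unadjusted p of this complex. Its fold was 1.09 (95% interval 0.931 to 1.27 with the block). The groups overlapped for each of the 4 genes, and the other log2 differences were -0.064 for Sdha, -0.0077 for Sdhc and -0.0079 for Sdhd. On wild-type arrays 2 and 3 Sdhc read 22.6 and 22.8, and on those of the knockout 21.1 and 20.6.

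Complex III carries electrons from ubiquinol to cytochrome c through cytochrome c1 (Cyc1) and the Rieske iron-sulphur protein (Uqcrfs1), on a scaffold of the core proteins Uqcrc1 and Uqcrc2. Here 5 of 7 differences were positive, with a median of 0.10. Uqcrfs1 read 339, 335 and 384 on the wild-type arrays and 372, 371 and 395 on the knockout arrays, higher in all 3 pairs (0.13, 0.15 and 0.04) while the groups still overlapped. Cyc1 read 204, 138 and 180 against 212, 152 and 195 and was also higher in all 3 pairs. Their folds were 1.08 (95% interval 0.933 to 1.25) and 1.07 (0.924 to 1.25) with the block, so neither interval left out a fold of unity. Uqcrq, a small membrane subunit, had the largest positive difference at 0.17. Uqcrc1 had the largest negative one at -0.13, and its pair values of 0.24, -0.62 and -0.02 did not share a sign.

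Complex IV, cytochrome c oxidase, had 8 genes above and 4 below zero (median 0.050). Its catalytic subunits are mitochondrially encoded, and the nuclear genes measured here supply the regulatory shell. Cox5a read 270, 250 and 306 (wild type) and 292, 259 and 335 (knockout), a log2 difference of 0.10 that was positive in all 3 pairs. Cox4i1, the ubiquitous form of subunit 4 that the enzyme needs for assembly, read 357, 97.5 and 131 against 383, 112 and 114, a difference of 0.033. Cox5b read 118, 15.6 and 19.0 against 125, 14.8 and 14.4, a difference of -0.13. Its genotypes overlapped, whereas both replicate 1 arrays stood far above the others. The remaining widely expressed members were Cox8a (0.052), Cox7b (0.048), Cox7c (-0.051) and Cox6b1 (-0.13).

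Several complex IV subunits come in isoforms with a narrower known range of tissues. Cox4i2, a form of subunit 4 known from lung and from hypoxic cells, read 5.27, 2.27 and 2.36 in the wild-type group, and 5.84, 5.59 and 3.91 in knockouts. It had the largest difference of all 62 genes, 0.73 on the log2 scale, and the smallest unadjusted p (0.155 without and 0.0298 with the block in limma), but its adjusted p was at least 0.999 in both. The groups overlapped, since wild-type array 1 read above knockout array 3, and the exact permutation test gave p = 0.2 where 0.1 is the smallest possible. The 3 pairs gave 0.15, 1.30 and 0.73, and the fold was 1.65 (95% interval 1.06 to 2.57 with the block). Without the replicate 1 arrays the log2 difference was 1.01 with an unadjusted p of 0.0186 and an adjusted p of 0.995 in limma. In that fit 2 of 62 members had an unadjusted p under 0.05, Cox4i2 and the ATP synthase gene Atp5c1, against 4.26% of all probes. Cox4i2 was dim, above the 75th percentile on knockout array 2 alone, and its groups separated after quantile normalization, as did those of 2.77% of all probes in that direction, and after centring on 75th percentiles, as did those of 1.15%.

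Among isoforms of striated muscle and testis, Cox8b and Cox7b2 stayed below the median of every array. Cox8b, the heart and skeletal muscle form of subunit 8, read 0.157, 0.372 and 0.678 on the wild-type arrays and 0.157, 0.599 and 0.847 on the knockout arrays. The testis form Cox7b2 read 0.265, 0.451 and 0.353 against 0.146, 0.536 and 0.837. Cox7a1, the muscle form of subunit 7a, read 5.28, 0.721 and 1.87 against 3.45, 2.40 and 2.38. The testis form Cox6b2 read above the median on all arrays, at 22.7, 3.69 and 5.70 against 23.3, 3.61 and 3.74. Skeletal muscle markers were low alongside, with a summed intensity of 6.97 to 8.64 in wild type and 5.97 to 9.65 in the knockout. Heart markers were higher, at 96.5 to 135 in wild type and 92.4 to 111 in the knockout, most of it from Actc1. Germ cell markers summed to 42.1 to 44.9 and 39.0 to 43.8, most of it from Ddx4. Whether cells of any of these kinds contribute to the isoform signals was not tested.

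**Figure D3:**
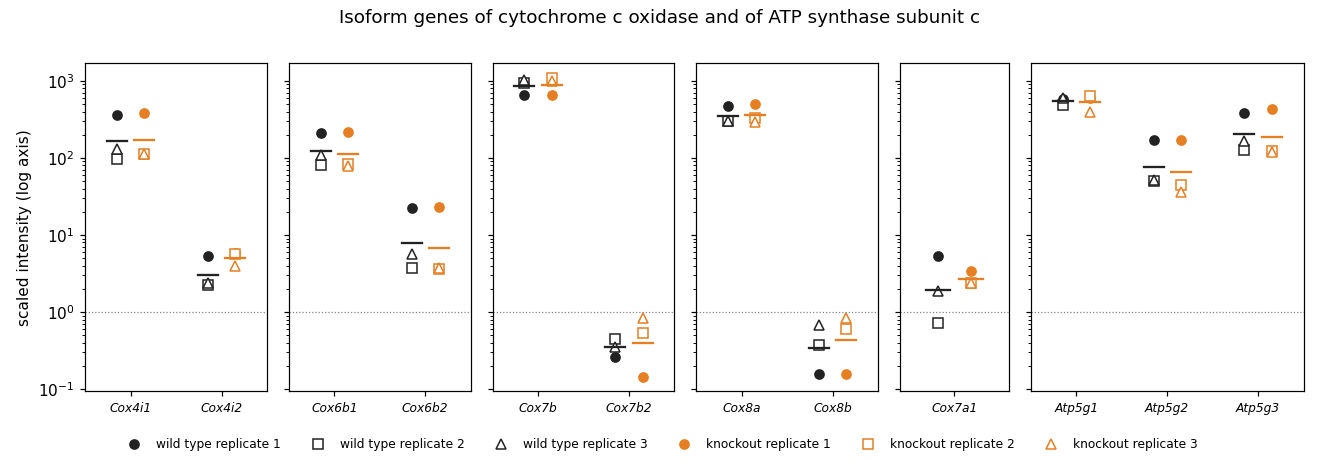
Scaled intensity (log axis) of isoform genes on the 6 arrays, with lines at the geometric mean of each genotype and a dotted line at 1, near the array medians. Cox7b2 and Cox8b lie below the dotted line on all arrays, and the ATP synthase genes Atp5g2 and Atp5g3 share the higher filled replicate 1 symbols while Atp5g1 does not.

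ATP synthase had 3 genes above and 9 below zero (median -0.055). The catalytic beta subunit gene Atp5b read 1182, 666 and 769 (wild type) and 1180, 655 and 738 (knockout), a fold of 0.981 (95% interval 0.855 to 1.13 with the block). Atp5md, a small membrane subunit linked to dimers of the enzyme, had the largest negative difference of the 62 genes at -0.29. It read 1110, 338 and 301 against 1058, 198 and 292, so the groups overlapped and only the pair numbered 2 (-0.77) was large. Atp5c1, the central stalk subunit gamma, read 113, 44.1 and 54.5 against 134, 28.9 and 40.4. Its pairs were 0.24, -0.61 and -0.43, a mean of -0.27, and without the replicate 1 arrays the difference was -0.52 (limma unadjusted p = 0.0356, adjusted p = 0.995). In pair 3, 10 of 12 genes were lower in the knockout, while 8 of 12 were higher in pair 1 and 7 of 12 in pair 2. The largest negative value, that of Atp5md, was in pair 2. Complex I leaned the same way in pair 3, with 7 of 27 genes higher in the knockout, but complex III did not, with 4 of 7 higher. Of all 62 members, 50, 42 and 20 were higher in the knockout in pairs 1, 2 and 3. The same counts were 18779, 16556 and 15851 of all 33012 probes. Among the 8253 brightest probes they were 6329, 3311 and 3865. The pairs thus leaned in different directions.

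Subunit c, which forms the rotating ring of ATP synthase, comes from 3 genes that are known to encode the same mature peptide behind different import signals. Atp5g1 read 581, 485 and 593 in the wild-type group, and 592, 632 and 395 in knockouts. Atp5g2 read 170, 49.5 and 52.4 against 170, 44.9 and 36.6, and Atp5g3 read 386, 128 and 166 against 436, 124 and 120. None separated the genotypes, with log2 differences of -0.059, -0.22 and -0.11. They differed between replicate numbers: on the replicate 1 arrays Atp5g2 and Atp5g3 were 3.74-fold and 3.08-fold above the mean of the other numbers, and Atp5g1 was 1.13-fold above it.

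The chain differed more between replicate numbers than between genotypes. In both genotypes 31 of 62 members read over 2-fold higher on the replicate 1 array than on the log2 mean of arrays 2 and 3, against 14.6% of all probes and 24.6% of the brightest 25% of probes. The members Ndufa10 and Cox8b, 2 of 62 or 3.23%, read over 2-fold lower in both genotypes, against 13.4% of all probes and 5.65% of the brightest 25%. The median shift of members was 1.11 on the log2 scale in wild type and 1.05 in the knockout, beside 0.20 and 0.30 over the brightest 25% of probes and -0.25 and -0.29 over all probes. Across the 62 genes the wild-type and knockout shifts correlated with r = 0.940 (0.757 over all probes and 0.967 over the brightest 25%, where genes share the same 6 arrays and are not independent). Markers moved with the number too. Among presomitic mesoderm markers, 4 of 9 read over 2-fold higher on replicate 1 in both genotypes: Hes7 (38.5-fold), Msgn1 (14.7-fold), Fgf8 (3.48-fold) and Dll1 (100.2 and 129 on replicate 1, 26.7 to 30.8 on the others), while Tbx6 was at 0.592 and Dll3 at 0.854 of the other arrays. Among neural tube markers Pax3 (5.87-fold) and Sox2 (2.60-fold) read higher, and the median log2 shift of the 8 was -0.48. Their part in the members' shift was not tested. Replicate numbers are labels of separate arrays, the labels tie them to no batch or day, and these shifts are given as a description without a test.

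The size of the shift depended on the scaling. After quantile normalization 25 members were over 2-fold higher on replicate 1 in both genotypes (10.6% of all probes, 15.5% of the brightest 25%) and 1 was over 2-fold lower (7.95% of all probes, 16.5% of the brightest 25%). The median shift was then 0.81 for members, -0.21 for the brightest 25% and -0.12 for all probes, where the deposited scale gave 1.04, 0.24 and -0.33. Centring on 75th percentiles, which by construction moves every probe of an array alike, gave 0.27, -0.53 and -1.11. By complex the median shift as deposited was 1.08 for complex I, 0.89 for complex II, 0.48 for complex III, 1.01 for complex IV and 1.48 for ATP synthase.

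**Figure D4:**
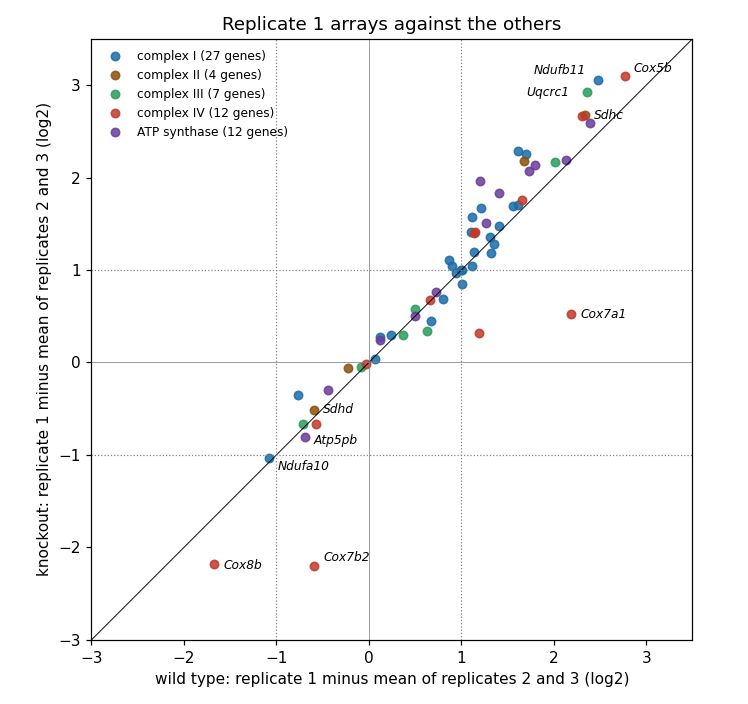
For each of the 62 genes, log2 intensity on replicate 1 minus the mean of replicates 2 and 3, in wild type (horizontal) and knockout (vertical); dotted lines mark 2-fold and the diagonal equal shifts. Genes follow the diagonal from Cox5b and Ndufb11 at the top to Ndufa10, and the dim isoforms Cox7a1, Cox7b2 and Cox8b lie off it or at its lower end.

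Subunits of one complex, which assemble in fixed proportions, parted in this comparison. In complex IV, Cox5b read 6.81-fold higher on replicate 1 in wild type and 8.56-fold higher in the knockout, the largest shift of all members, while Cox5a, averaged over genotypes, was at 0.983 of the other arrays. In complex II, Sdhc was 5.05-fold and 6.41-fold higher and Sdha 3.19-fold and 4.54-fold, whereas Sdhd was at 0.664 and 0.699 and Sdhb at 0.857 and 0.956. In complex III, Uqcrc1 was 5.13-fold and 7.57-fold higher and its partner Uqcrc2 at 0.611 and 0.632. Complex I ran from Ndufb11, 5.56-fold and 8.33-fold higher, to Ndufa10, at 0.472 and 0.490. Within ATP synthase, the stalk subunit gene Atp5d was on average 5.62-fold higher and the peripheral stalk gene Atp5pb at 0.595. Each of these splits was seen in both genotypes. The extremes were picked by the shift averaged over genotypes and others after their values were seen, so this agreement is no separate support. Each of these genes was read by a single probe, so subunits that part cannot be told from probes that part. In every split named here the gene raised on replicate 1 had the dimmer probe. Mean log2 intensities were 4.96 for Cox5b and 8.15 for Cox5a, 5.01 for Uqcrc1 and 8.35 for Uqcrc2, and 3.55 for Ndufb11 and 8.01 for Ndufa10. The intensity spread of the replicate 1 arrays also differed, and the part of probe brightness in these splits was not tested.

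The single gene with a second probe gave opposite answers with its probes. The brighter Atp5j probe (900726) read 329, 409 and 486 on the wild-type arrays and 375, 430 and 498 on the knockout arrays, 0.773-fold on replicate 1 relative to the others. The dimmer probe (577127) read 14.0, 1.35 and 3.88 against 16.4, 1.55 and 2.94, which is 6.86-fold higher on replicate 1. Between genotypes both were near zero, at 0.10 and 0.0075 on the log2 scale. For Atp5j the shift between replicate numbers thus differed between the probes of one gene. Near-identical copies add a further uncertainty, since Atp5c1, Atp5pb, Cox5b, Cox7c and Ndufa12 have pseudogenes of the same name in the annotation and Ndufs5-ps is itself one.

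Genes around the chain gave no call either. Of 30 measured assembly factors (42 listed), 19 lay above zero and 11 below (median 0.040). The smallest unadjusted p-values there belonged to Uqcc1 (-0.94), a complex III assembly factor, and to the complex I factor Ndufaf7 (0.20). On knockout arrays 2 and 3 Uqcc1 was dim, at 0.468 and 0.978, below the array medians. Of 18 measured citrate cycle and pyruvate dehydrogenase genes 7 lay above zero and 11 below (median -0.061), and malate dehydrogenase Mdh2 (0.23) and citrate synthase Cs (0.16) ranked first. Of 15 genes for electron carriers and ATP export 9 lay above zero and 6 below (median 0.034). Leading were the testis cytochrome c gene Cyct (-0.99) and the uncoupler Ucp1 (0.52), both dim. Mean intensities were 1.73 in wild type and 1.01 in knockouts for Cyct, and 0.839 and 1.21 for Ucp1. Of 14 regulators of mitochondrial biogenesis 7 lay above zero and 7 below (median -0.013), led by Ssbp1 (-0.34) and Nrf1 (-0.26). In all 4 lists 0 genes had an unadjusted p under 0.05 in either limma fit. Over all probes the share was 0.657% without and 3.75% with the block, so few such genes were to be looked for in lists this short.

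These lists did not all share the chain's replicate pattern. The median shift of replicate 1 was 1.38 for the citrate cycle genes, with 9 of 18 over 2-fold higher in both genotypes, and 0.55 for assembly factors (10 of 30). It was 0.73 for biogenesis regulators (6 of 14) and -0.082 for carriers and ATP export (5 of 15). Beside them stood 60 cytoplasmic ribosomal protein genes at 0.34 (15 of 60) and 28 proteasome subunit genes at 0.62 (10 of 28), both abundant housekeeping sets. The differences between lists were not tested.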

How the data were processed

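Per the labels' protocols, digoxigenin-labelled cRNA of each sample was hybridised to its own Applied Biosystems array. The authors deposited 1 linear intensity per probe and array, with array medians near 1; no label gives their software, background correction or flags. The 33012 probes held 0 missing values and 0 values at or below 0. Names came from the platform annotation table (14411 probes with 1 gene, 247 with several, 18354 unnamed here), and all 62 member symbols matched the mouse reference by Entrez identifier. A human array is given in the text of the samples although organism and annotation table are mouse. The labels do not resolve this, and every gene name rests on that table.

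Intensities were converted to log2 without offset or filter and fitted over all probes with limma 3.58.1 in R 4.3.3 (genotype term, eBayes with intensity trend, two-sided, Benjamini-Hochberg over all probes). The replicate number as a block was the alternative design. Its use as pairing comes from the data: deviations from group means correlated within number by 0.757, 0.442 and 0.374, but numbers 2 and 3 also correlated across genotypes by 0.397 and 0.419, so only replicate 1 is set apart and signs in pairs 2 and 3 rest on the number. Among members the correlations were 0.940, 0.779 and 0.840 within number, and 0.841 and 0.833 between numbers 2 and 3 across genotypes. Exact permutation tests used log2 values. Shifts of replicate 1 are differences of log2 values. Other alternatives were quantile normalization, centring on 75th percentiles, an offset of 1, a filter on dim probes, no trend, array weights and leaving out arrays. Members and lists were chosen with earlier results of these data known. Named genes are, per complex, those with the smallest p, members with separated bright groups (0 found), catalytic or core genes, isoform sets, the extremes of the replicate 1 shift and the leading genes of each mitochondrial list; the second Atp5j probe, Ndufs4, Atp5d, Atp5pb, Cox7c and the largest differences per complex were added after their values were seen. Tables used Python 3.11.15, pandas 2.3.3 and numpy 2.4.6.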

Additional observations from a re-analysis of the deposited data

How the results depend on the processing

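The absence of called members held in every setting tried: 0 of 62 passed an adjusted p of 0.05 in limma, with the replicate block too. Over all probes 0 passed, against 2 with the block (0 with the block and no intensity trend), 1 with array weights and 0 to 2 with arrays left out. Unadjusted p under 0.05 counted 217 probes, against 1238 with the replicate block, 1492 with the block and no intensity trend (added after the data were seen), 529 after quantile normalization, 47 with centring on 75th percentiles, 60 without dim probes, 333 without the trend, 3145 with array weights and 83 to 1407 with arrays left out. Among members it counted 0, against 1 with the block (0 with the block and no trend), 1 with array weights and 0 to 2 with arrays left out. Members with separated groups, knockout higher, numbered 0, against 2 after quantile normalization (Cox4i2 and Ndufb10; 2.77% of all probes) and 1 with centring (Cox4i2; 1.15%). With arrays left out, which unbalances the replicates, the median log2 difference ran from -0.31 to 0.32 over all members, -0.36 to 0.37 in complex I, -0.33 to 0.27 in complex II, -0.056 to 0.24 in complex III, -0.14 to 0.30 in complex IV and -0.65 to 0.26 in ATP synthase, where array weights gave -0.25. Both ends came from leaving out a single replicate 1 array for all members together, complexes I and II and ATP synthase. Of 41 members named with values, 36 changed sign in at least 1 of 9 fits with arrays left out and 11 in at least 1 of 8 other settings. Cox4i2, Cox5a, Ndufb10, Sdhb and Uqcrfs1 kept theirs throughout. The replicate block, the fit without the trend and the filter on dim probes leave each log2 difference as it was. No sign could change in these settings, so a kept sign there is no support. The number of arrays limits the precision, and Cox7b2 and Cox8b, below the array medians, can be read only as dim.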
